A study of Mus musculus with 6 samples.

Results

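The genes described here encode the proteasome, the protease complex that degrades ubiquitinated proteins. Members were all transcripts (contigs) whose gene symbol starts with Psma, Psmb, Psmc, Psmd, Psme, Psmf or Psmg followed by a digit, with Psmc3ip left out. The rule found 58 contigs of 40 genes among the 12114 contigs in the files, of which 11517 carry a gene annotation. The core particle had 19 contigs of 14 genes, and the regulatory particle had 26 contigs of 19 genes. The activators Psme3 and Psme4 and the inhibitor Psmf1 had 7 contigs, and the assembly chaperones Psmg1, Psmg2 and Psmg4 had 5. The last member, Psme3ip1, fits the letters of the rule but encodes an interacting protein and not a subunit, so it is kept apart. No contig matched Psma7, Psmb8, Psmb9, Psmb10, Psmb11, Psmd5, Psme1, Psme2, Psme2b or Psmg3, which were therefore not analysed here.

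The study measured poly(A) tails by direct RNA sequencing, in which a nanopore reads each native RNA molecule together with its tail. Pachytene and diplotene spermatocytes (P/D spermatocytes) are meiotic germ cells, and round spermatids (RS) are the haploid cells that follow meiosis. Both were sorted by FACS, with Hoechst and PI staining, from adult wild-type C57BL/6J males that carried no transgene and received no treatment. There were 3 samples of each cell type, and each sample was RNA from a pool of 3 mice. A gate enriches for a cell type without purifying it. By the study's microscopy the P/D gate was clearly the less pure of the 2 gates, and a large part of its cells were of other types. This limits every P/D value below. Barcoded P/D samples were run together in 1 multiplexed library and RS samples in another, so in every difference below the library and the cell type cannot be told apart.

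The proteasome is built from separable parts. The core particle is a barrel of outer alpha rings and inner beta rings, and the catalytic beta subunits face its cavity. The regulatory particle caps the barrel. Its ATPase subunits (Psmc) unfold substrates and its non-ATPase subunits (Psmd) bind and remove ubiquitin. Activators can cap the core in place of the regulatory particle, and in male germ cells the alpha subunit Psma8 and the activator Psme4 are known for roles in meiosis and in spermatid histone removal.

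The files held 244004 to 305950 reads per P/D sample and 316653 to 474688 per RS sample. Proteasome contigs took 15189 of these reads, between 0.808% and 0.839% of a P/D sample and between 0.705% and 0.744% of an RS sample. As totals, the marker lists followed the labels. The P/D list (7 of 8 genes with a contig) took 0.157% to 0.167% of reads in P/D samples and 0.0463% to 0.0544% in RS. For the RS list (8 of 8 genes) the ranges were 0.0129% to 0.0268% and 0.24% to 0.248%. Members of the P/D list were not all alike. Piwil1 had 115, 127 and 113 reads in P/D samples and 8, 13 and 10 in RS. The Ccna1 contig ENSMUST00000198320 went the other way, with 11, 14 and 4 against 28, 36 and 16. Genes translated in elongating spermatids (6 of 6) were also higher under the RS label, at 0.163% to 0.216% in P/D and 2.09% to 2.58% in RS samples. The study describes their mRNAs as already transcribed in RS, so they do not tell the 2 spermatid types apart. Their part in the results below was not tested. Sertoli markers (2 of 6 genes with a contig) had 0 to 2 reads in a sample and the Leydig marker (1 of 5) 1 to 7, while the lists for spermatogonia and immune cells had no contig.

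Tails were first compared contig by contig, to ask which proteasome transcripts took part in the lengthening seen in RS. Compared with P/D spermatocytes, most regulatory particle transcripts had longer tails in RS, and most core particle transcripts did not pass the test. Of the 48 contigs with enough reads, 25 were longer in RS, 1 was shorter and 22 did not pass (limma, Benjamini-Hochberg adjusted p below 0.05 over all contigs). Among all 6990 contigs tested the shares were 54.2% longer and 1.69% shorter, so the members as a whole were close to the background. The other 10 contigs were not tested, 9 of them because they lacked 10 reads in 2 samples of either cell type and Psmd10 because 2 P/D samples had none of its reads. The median difference of the tested members, RS minus P/D, was 28.4 nt, against 37.4 nt over all contigs.

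The counts were then split by particle, as a description with no test between particles. In the core, 4 of 16 tested contigs were longer in RS and 0 were shorter, with a median difference of 7.09 nt. In the regulatory particle, 19 of 24 were longer and 1 was shorter, with a median of 44.6 nt. Where each sample had 20 reads or more, 4 of 8 core contigs (median 14.3 nt) and 14 of 14 regulatory contigs (median 45.6 nt) were longer. Among the 1827 contigs of that depth, 87.1% were longer and 2.46% shorter, with a median of 49.9 nt. The regulatory median was thus slightly below that of all contigs at this depth. On a log2 scale of tail length 8 of 16 core contigs were longer, since Psma3, Psma5, Psmb7 and the minor Psmb1 contig passed there as well. Over all contigs 4117 of 6990 were longer on that scale, so the core was nearer the background there.

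The 3 RS samples lay above all 3 P/D samples for 21 of 24 regulatory contigs and for 5 of 16 core contigs, where this held for 63.6% of all contigs with a mean in every sample. They lay below for 1 contig of each particle, Psmb3 and Psmd3, and for 2.72% of all contigs. The plot of tails by gene shows this per sample.

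**Figure D1:**
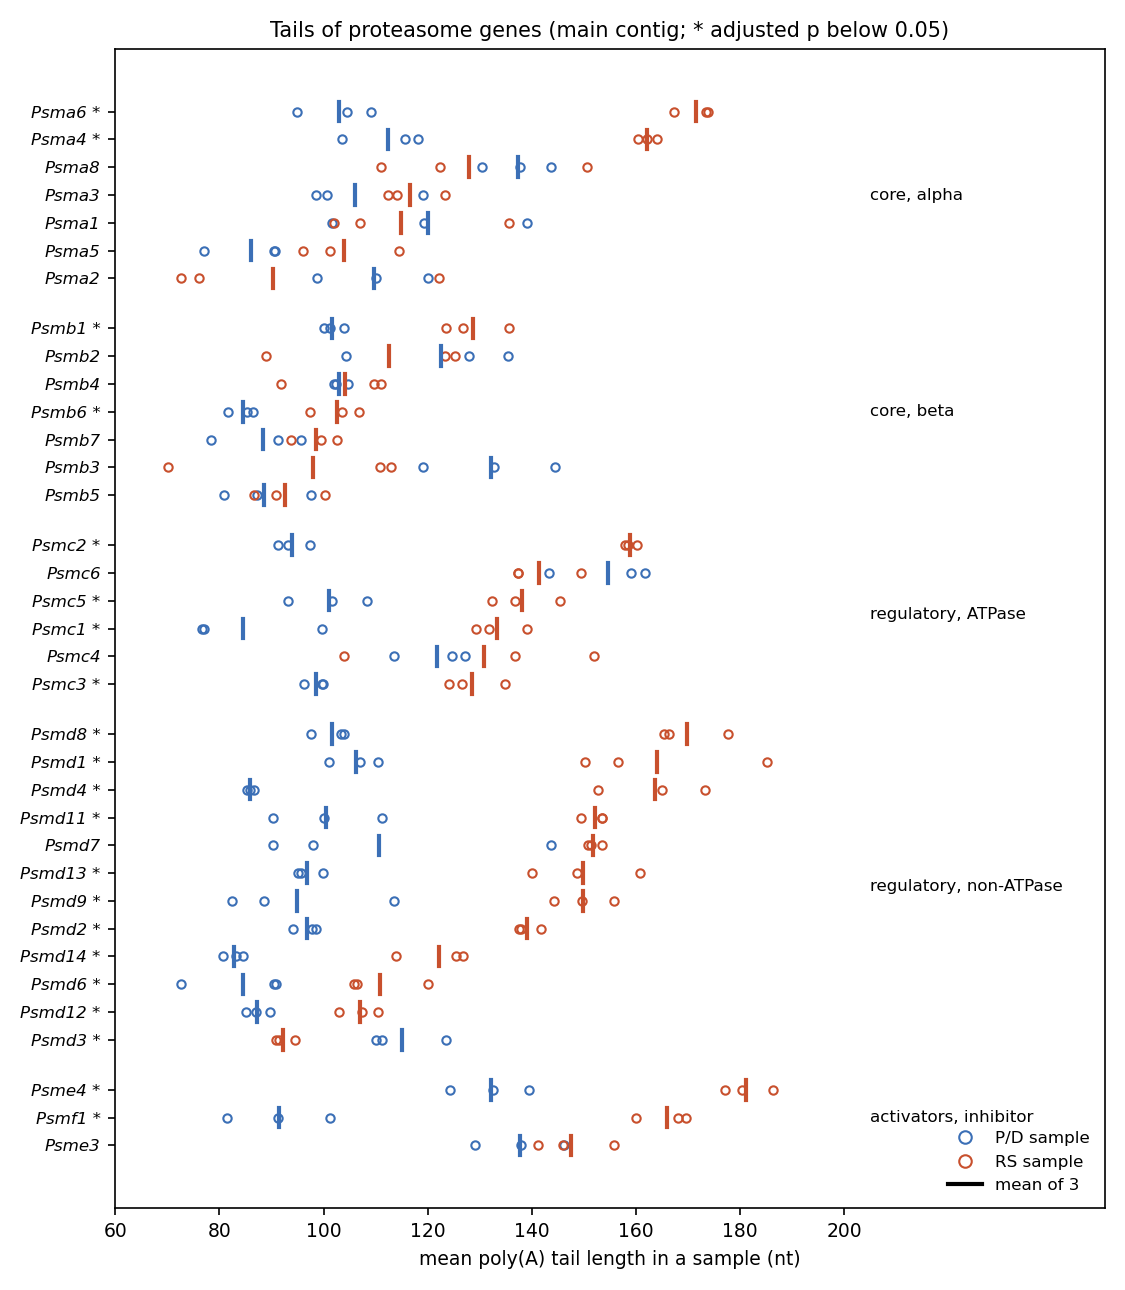
Mean poly(A) tail length (nt, horizontal axis) of the main contig of each proteasome gene tested, in each P/D (blue) and RS (red) sample, with the mean of 3 samples as a bar. The assembly chaperones and Psme3ip1 are not drawn. In the regulatory rows the red and blue points are mostly apart, whereas in the core rows they overlap except for Psma4, Psma5, Psma6, Psmb1, Psmb3 and Psmb6, of which Psmb3 has its RS samples below.

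Contigs were examined at their annotated 3′ ends, where the tail is added. The poly(A) signal hexamer AATAAA, or its variant ATTAAA, was searched on the transcript strand in the last 40 bases of GENCODE vM21 transcripts (GRCm38). AATAAA was present in 12 of 15 tested protein-coding core contigs, in 17 of 23 regulatory contigs and in 62.3% of 6255 tested protein-coding contigs. ATTAAA without AATAAA was found in 2 core contigs, 1 regulatory contig and 14.3% of all. The annotated end need not be the end of the molecules sequenced, and a match is a description only. The ends of the 3 catalytic core genes are set beside those of Psma6, Psmc2 and Psmd4, and of Psmd3, which was shorter. Psma6, Psmc2 and Psmd4 had the largest differences of their subunit groups among contigs with 20 reads in every sample. The hexamer is in capitals, and where copies overlap, as in Psmb7, only the last copy is marked.
Psmb5, chr14:54614124-54614153, minus strand: ctccatggctatAATAAAtaatagtacctc
Psmb6, chr11:70527620-70527649, plus strand: gacgcagaagctAATAAAcagtttgttaaa
Psmb7, chr2:38588039-38588068, minus strand: ttaaaataaataAATAAAaagacaaaaaac
Psma6, chr12:55418421-55418450, plus strand: ggactctgtataAATAAAacagtgcttttg
Psmc2, chr5:21803754-21803783, plus strand: ccaccgcacaaaAATAAAagatttaaaaac
Psmd4, chr3:95032704-95032733, minus strand: tttatgatggAATAAAgcttggcaagtttt
Psmd3, chr11:98695949-98695978, plus strand: tgatttttaaacAATAAAaagttctccaga
All 7 carried AATAAA, but neither hexamer was in the window of Psmb4, of Psmd12 or of the main Psmf1 contig, whose tail differences were 1.19, 19.6 and 74.5 nt.

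Among the alpha subunits, Psma6 stood out. Its contig ENSMUST00000021412 (chromosome 12 of GRCm38, 55398775 to 55418454, 7 exons) had mean tails of 95.0, 109 and 105 nt in the P/D samples and 174, 167 and 174 nt in the RS samples. All RS samples were well above all P/D samples. The difference was 68.6 nt (standard error 6.33, limma adjusted p = 5.02e-04), and reads with tails of 120 to 210 nt made up 21.2%, 32.6% and 37.1% of the P/D and 71.2%, 74.3% and 71.0% of the RS reads. Psma4 was the only other alpha contig that passed, from 112 ± 7.82 to 162 ± 1.88 nt (SD, n = 3 each), with a difference of 49.7 nt and a limma adjusted p = 0.00108.

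Psma8 encodes the alpha subunit that replaces Psma7 in spermatocyte proteasomes. Its main contig had tails of 130, 144 and 138 nt in P/D spermatocytes and 111, 122 and 151 nt in RS. The groups overlapped, and the difference of -9.26 nt (standard error 11.2) did not pass the test (limma adjusted p = 0.517). Only 8, 14 and 8 reads stood behind the RS values, so this comparison was among the least precise. Psma3 was the alpha contig with the smallest difference among those with at least 20 reads in every sample, at 119, 101 and 98.5 nt against 114, 112 and 123 nt. Its difference of 10.5 nt (standard error 7.81) did not pass (limma adjusted p = 0.299), and the groups overlapped.

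Among the beta subunits, the 3 catalytic genes kept tails near 100 nt or shorter. Psmb5, the chymotrypsin-like subunit, had 97.6, 80.9 and 87.2 nt in P/D spermatocytes and 90.9, 86.6 and 100.2 nt in RS. Psmb7, the trypsin-like subunit, had 95.7, 78.4 and 91.2 nt against 103, 93.8 and 99.6 nt. The groups overlapped for both, and neither difference passed the test, with 3.996 nt (standard error 7.19, limma adjusted p = 0.666) for Psmb5 and 10.2 nt (standard error 6.88, limma adjusted p = 0.256) for Psmb7. With between 49 and 120 reads in every sample, these were among the better covered members.

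Psmb6, the caspase-like subunit, had 85.3, 81.7 and 86.5 nt in P/D spermatocytes and 104, 97.3 and 107 nt in RS. Its groups did not overlap, and the rise of 18.1 nt (standard error 5.66) passed with a limma adjusted p = 0.0349. With a replicate block the call was lost (limma adjusted p = 0.0826). It was also lost without P/D replicate 1 (0.0518), P/D replicate 2 (0.0662), RS replicate 1 (0.0974) or RS replicate 3 (0.0961), all as limma adjusted p. Psmb1, which encodes a non-catalytic beta subunit, had the largest beta difference among contigs with 20 reads in every sample, from 100.1, 101 and 104 nt to 127, 124 and 136 nt, a rise of 26.9 nt (standard error 5.91, limma adjusted p = 0.00927). Psmb4, also non-catalytic, had the smallest, with 102, 105 and 102 nt in P/D spermatocytes and 111, 91.8 and 110 nt in RS. Its difference was 1.19 nt with a standard error of 7.16 (limma adjusted p = 0.899).

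In the base of the regulatory particle, 4 of 7 ATPase contigs were longer, near the share over all contigs (54.2%). They were the main contigs of Psmc1, Psmc2, Psmc3 and Psmc5. Psmc2 (ENSMUST00000030769, chromosome 5, 21785283 to 21803787) had the largest difference, from 93.2, 91.3 and 97.4 nt to 160, 159 and 158 nt. The RS samples differed by only a few nt and lay far above P/D spermatocytes, with a rise of 64.9 nt (standard error 5.29, limma adjusted p = 4.90e-04). Psmc3, with 2140 reads the deepest member, rose less, from 99.8, 96.2 and 99.7 nt to 124, 127 and 135 nt. That was 29.9 nt with a standard error of 5.78 (limma adjusted p = 0.00557). Psmc4 had 125, 127 and 114 nt against 152, 137 and 104 nt, with wide overlap, and did not pass (9.10 nt, standard error 13.0, limma adjusted p = 0.584).

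Non-ATPase contigs were longer in 15 of 17 tests and shorter in 1, beside 54.2% and 1.69% of all contigs. The non-ATPase group includes Psmd9 and Psmd10, which encode assembly chaperones of the base and not subunits. Psmd4 is a ubiquitin receptor. Its main contig (ENSMUST00000107237, chromosome 3, 95032694 to 95042614) rose from 86.7, 85.2 and 85.9 nt to 165, 153 and 173 nt, the largest difference among members with 20 reads in every sample (77.7 nt, standard error 7.01, limma adjusted p = 4.91e-04). The share of its reads at 120 to 210 nt was 22.6%, 10.8% and 22.5% in the P/D samples against 83.9%, 75.4% and 79.4% in RS. The minor Psmd4 contig moved alike, by 85.2 nt (limma adjusted p = 5.89e-04), and the 3 tested contigs of Psmd8 rose by 62.7 to 68.5 nt.

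Psmd14 is the deubiquitinase that removes ubiquitin chains from substrates. It rose from 84.6, 80.7 and 83.1 nt to 127, 114 and 125 nt, or by 39.3 nt (standard error 6.099, limma adjusted p = 0.00232), though with 7 to 17 reads in the RS samples. Psmd12, a subunit of the lid, had the smallest difference among non-ATPase contigs with 20 reads in every sample. It had 85.1, 87.0 and 89.7 nt in P/D spermatocytes and 107, 111 and 103 nt in RS, a rise of 19.6 nt (standard error 5.47, limma adjusted p = 0.0229). This call was lost with the replicate block (limma adjusted p = 0.0757), without RS replicate 1 (0.0688) and without RS replicate 2 (0.0688).

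Psmd3, another lid subunit, was the only member called shorter. Its tails were 110.1, 124 and 111 nt in P/D spermatocytes and 90.9, 91.4 and 94.5 nt in RS, and the groups did not overlap. They fell by 22.7 nt (standard error 6.20, limma adjusted p = 0.0214). The call did not hold with the replicate block (limma adjusted p = 0.0609), without RS replicate 1 (0.0671) or without RS replicate 2 (0.0571). Psmd10, on chromosome X, had 1, 0 and 0 reads in P/D spermatocytes and 6, 10 and 10 in RS, and was not tested for tails or accumulation. Its RS tails averaged 106, 131 and 113 nt.

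Of the activators and the inhibitor, 2 of 5 tested contigs were longer, beside 54.2% of all contigs. Psme4, which encodes the nuclear activator PA200, rose from 140, 124 and 133 nt to 180, 177 and 186 nt. Its rise was 49.1 nt (standard error 6.58, limma adjusted p = 0.00131), and its RS tails were the longest of all tested members. The main contig of Psmf1, a proteasome inhibitor, rose from 101, 91.3 and 81.5 nt to 168, 160 and 170 nt, or by 74.5 nt (standard error 7.26, limma adjusted p = 5.44e-04). Psme3, a nuclear activator, already had 129, 138 and 146 nt in P/D spermatocytes and had 141, 146 and 156 nt in RS. Its groups overlapped, and 9.83 nt (standard error 7.33) did not pass (limma adjusted p = 0.301). Neither tested assembly chaperone passed, and Psmg1 had 103, 78.2 and 66.4 nt against 90.0, 90.4 and 125 nt, with overlap. On the log2 scale Psmg1 passed as longer (limma adjusted p = 0.0411). The interactor Psme3ip1 had a difference of 1.73 nt (limma adjusted p = 0.894).

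Reads were next pooled over the genes of a particle, to give the share of long tails (120 to 210 nt) in each sample. No p is given, since the genes and reads of a particle are not replicates. For the regulatory particle the share was 25.7%, 23.0% and 23.0% in P/D spermatocytes and 60.8%, 59.8% and 64.3% in RS. For the core it was 27.9%, 27.8% and 27.7%, against 42.9%, 43.3% and 44.5%. The core started slightly above the regulatory particle and ended well below it. In P/D spermatocytes regulatory minus core was -2.23, -4.77 and -4.78 percentage points, and in RS it was 17.9, 16.5 and 19.8. Over all annotated reads the mean share was 29.6% and 67.4%.

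Most of the difference of the core lay in Psma6 reads. Without Psma6 reads, a choice made after the values were seen, the core had 28.4%, 27.2% and 27.0% in P/D spermatocytes and 31.9%, 27.5% and 33.1% in RS, a mean difference of 3.28 percentage points in place of 15.8. Psma6 supplied 212 of 758, 378 of 1119 and 248 of 822 core reads in the RS samples. Beta subunit reads alone had 26.3%, 25.1% and 24.0% in P/D spermatocytes and 28.2%, 23.2% and 28.3% in RS, with overlap between the cell types. With equal weight for each gene, RS minus P/D was 4.18 percentage points in the core and 29.1 in the regulatory particle. ATPase and non-ATPase reads were near each other, at 36.5 and 39.0 percentage points, and the activators and inhibitor were at 36.5.

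Core tails were not static at the short end. Beta subunit reads with tails under 60 nt made up 31.4%, 34.3% and 35.9% in P/D spermatocytes and 12.1%, 18.5% and 11.4% in RS, and regulatory reads 29.6%, 33.4% and 28.6% against 3.20%, 3.29% and 1.75%. This bound was set after the distributions were seen. The median beta tail was 83.0, 77.4 and 79.1 nt in P/D spermatocytes and 93.8, 86.7 and 101 nt in RS, whereas the median regulatory tail was 84.8, 77.6 and 81.5 nt against 144, 141 and 149 nt. Thus short tails were rarer in RS in both particles, and long tails were the majority in RS for the regulatory particle, Psma6 and the activators and inhibitor. Psma6 was not alone in the core, since Psma4 had 75.8%, 76.7% and 76.0% long tails in RS. The main Psmb1 contig had 58.3%, 51.6% and 43.5%.

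**Figure D2:**
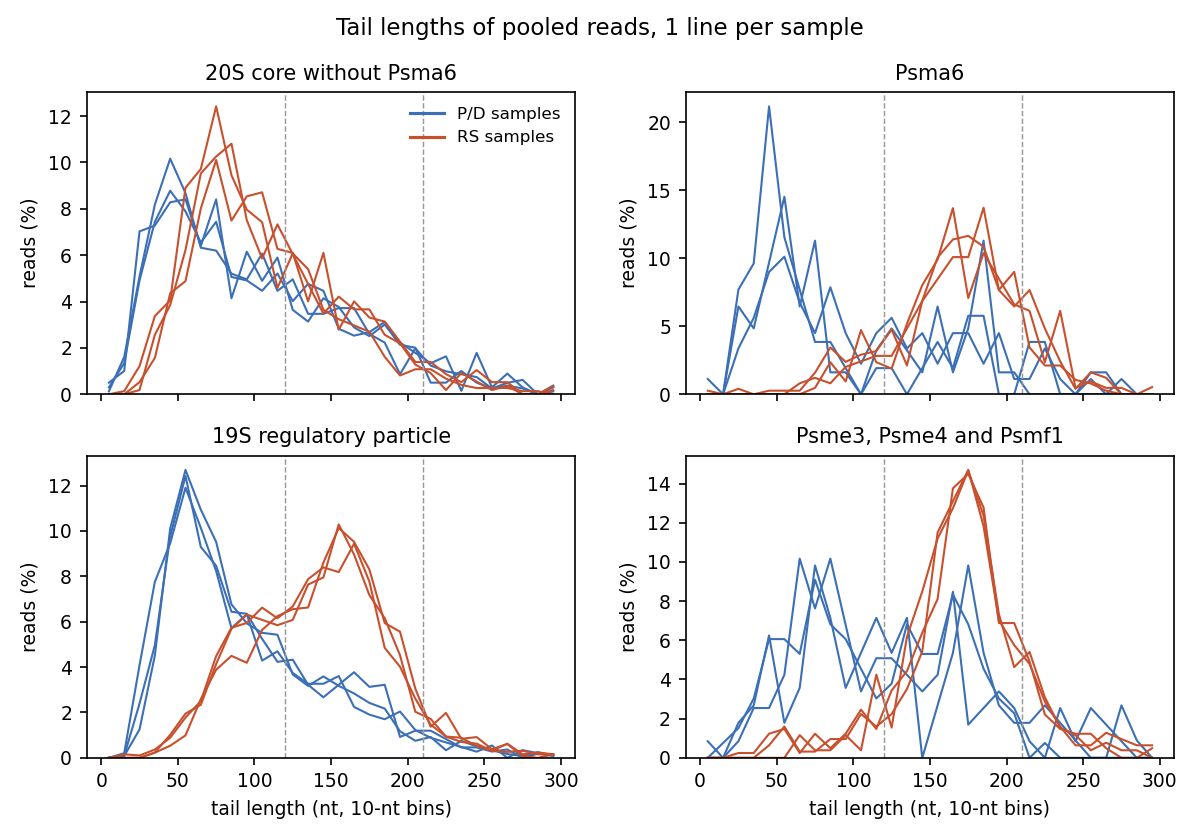
Distribution of tail lengths (nt, 10-nt bins, horizontal axis) as percent of reads (vertical axis) in each P/D (blue) and RS (red) sample, with dashed lines at 120 and 210 nt. The RS curves of the core without Psma6 peak below 120 nt, and those of Psma6, of the regulatory particle and of Psme3, Psme4 and Psmf1 together peak above 120 nt.

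**Figure D3:**
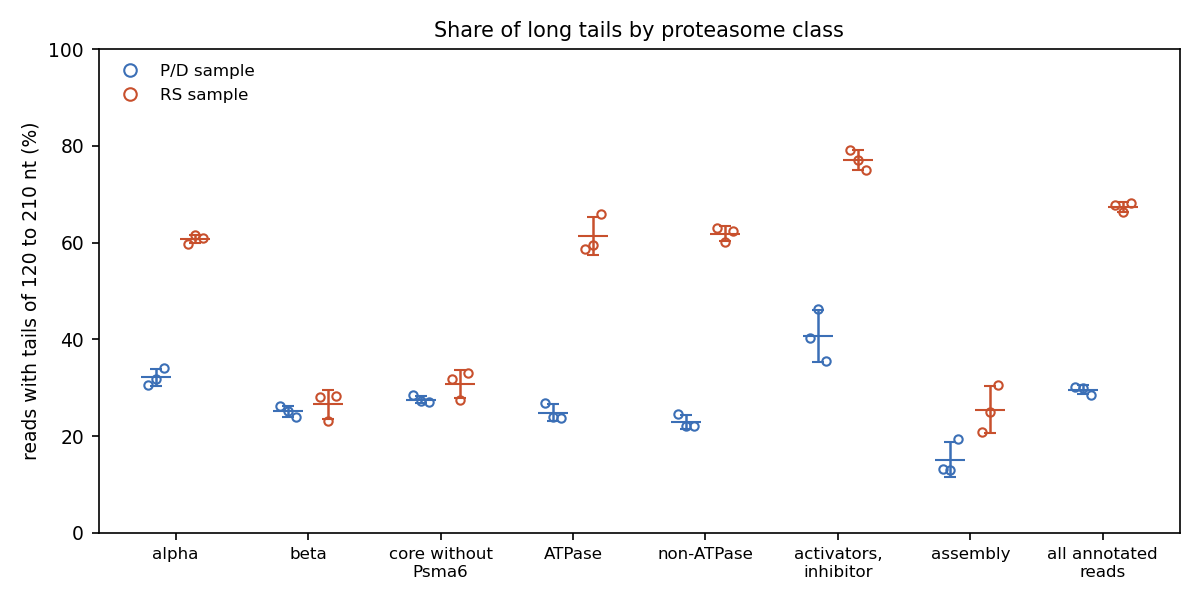
Percent of reads with tails of 120 to 210 nt (vertical axis) in each P/D (blue) and RS (red) sample by proteasome class, with the mean and SD of 3 samples. Beta subunits stay between 23.2% and 28.3% in all 6 samples, and ATPase and non-ATPase subunits lie between 58.7% and 65.8% in RS.

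Accumulation was compared next, as the read count of each contig relative to the library. Counts are given as CPM (counts per megaread of the TMM-scaled library). Core transcripts were mostly lower in RS, and those of the activators and the inhibitor were higher, with limits from the count filter given below. In the regulatory particle 8 of 24 contigs were lower, near the share over all contigs. Only 2 of the 24 were higher, which was below that share. Of 47 contigs tested, 8 were higher in RS, 19 were lower and 20 did not pass (adjusted p below 0.05, quasi-likelihood test of edgeR), where 32.6% of 6005 contigs were higher and 30.8% lower. DESeq2 gave 7 higher and 12 lower, and moved the split of all contigs from 1955 higher and 1848 lower to 2563 and 1430. The median log2 fold change of the members was -0.35, against -0.03 over all contigs. A lower count in sorted bulk samples can be fewer cells of a type or less RNA per cell, which cannot be told apart.

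In the core, 10 of 15 tested contigs were lower and 1 was higher, with a median log2 fold change of -0.65. Psma6 was the exception. It had 229, 309 and 253 CPM in P/D spermatocytes and 730, 885 and 792 CPM in RS, a log2 fold change of 1.60 (standard error 0.14, edgeR adjusted p = 5.07e-13). Psma8 fell most of all members. It went from 198, 187 and 175 CPM to 27.6, 32.8 and 25.5 CPM, with every RS sample below every P/D sample, a log2 fold change of -2.67 (standard error 0.27, edgeR adjusted p = 1.499e-11). Psma2 had the next largest fall among alpha contigs, between 116 ± 20.03 CPM and 35.2 ± 14.1 CPM (SD, n = 3 each).

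Psma3 fell from 251, 215 and 273 CPM to 203, 180 and 157 CPM, with a log2 fold change of -0.45 (edgeR adjusted p = 0.0287). This call was lost without P/D replicate 3 (edgeR adjusted p = 0.103), RS replicate 2 (0.0757) or RS replicate 3 (0.191), and in DESeq2 (adjusted p = 0.181). Psmb1 was the beta contig that fell most, from 251, 208 and 351 CPM to 82.7, 72.6 and 73.4 CPM. Its log2 fold change was -1.82 (standard error 0.22, edgeR adjusted p = 2.02e-09). Psmb4 fell from 409, 343 and 404 to 172, 190 and 192 CPM, with a log2 fold change of -1.05 (edgeR adjusted p = 3.55e-07).

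The catalytic genes did not move alike. Psmb5 fell from 357, 285 and 273 CPM to 189, 145 and 157 CPM, a log2 fold change of -0.90 (standard error 0.18, edgeR adjusted p = 2.63e-05). Psmb7 had 343, 340 and 383 CPM in P/D spermatocytes and 303, 281 and 265 CPM in RS. Its samples did not overlap, but -0.33 (standard error 0.15) missed the threshold (edgeR adjusted p = 0.0567). Psmb6 had 405, 507 and 600 CPM against 527, 464 and 489 CPM, with overlap and a log2 fold change of -0.04 (standard error 0.14, edgeR adjusted p = 0.821).

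In the regulatory particle, 8 of 24 contigs were lower, 2 were higher and 14 did not pass, with a median log2 fold change of -0.32. Psmc2 rose from 515, 482 and 510 CPM to 703, 717 and 667 CPM, a log2 fold change of 0.47 (standard error 0.12, edgeR adjusted p = 9.91e-04). Psmc4 fell most of the ATPase contigs, from 79.2, 69.4 and 106 CPM to 34.4, 18.7 and 38.3 CPM, or -1.51 on the log2 scale (standard error 0.33, edgeR adjusted p = 1.25e-04). The deubiquitinase Psmd14 fell most of the non-ATPase contigs, from 106, 111 and 89.7 CPM to 31.0, 39.8 and 22.4 CPM, or -1.67 (standard error 0.31, edgeR adjusted p = 8.10e-06). Psmd4 fell from 233, 226 and 200 CPM to 107, 143 and 109 CPM, or -0.85 (standard error 0.20, edgeR adjusted p = 2.61e-04). Of the other 2 contigs named for their tails, Psmd12 had a log2 fold change of 0.15 and Psmd3 of -0.27, and neither passed (edgeR adjusted p = 0.566 and 0.431).

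The contigs of Psmc3 went opposite ways. The main one (ENSMUST00000067663, 12 exons) had 1325, 1356 and 1289 CPM in P/D spermatocytes and 1123, 1105 and 1067 CPM in RS, a log2 fold change of -0.27 (standard error 0.10, edgeR adjusted p = 0.0201). The other (ENSMUST00000111441, 11 exons) had 96.9, 146 and 122 CPM against 134, 293 and 230 CPM, a log2 fold change of 0.86 (edgeR adjusted p = 0.00101). Both share the same annotated 3′ end and most of their sequence, so reads may be split between them by the alignment. Summed over the gene the log2 fold change was -0.08 (edgeR adjusted p = 0.486). The fall of the main contig was lost in DESeq2 (adjusted p = 0.134) and without P/D replicate 2 (edgeR adjusted p = 0.0543) or any 1 RS replicate (0.0515 to 0.167).

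All 5 tested contigs of the activators and the inhibitor, from 3 genes, were higher in RS, beside 32.6% of all contigs. Psme3 (14, 9 and 12 P/D reads) and the Psmf1 contigs ENSMUST00000109869 (12, 6 and 8) and ENSMUST00000155939 (6, 3 and 4) met the count filter only through their RS reads. Their calls are therefore no separate support for the count. Psme4 rose from 233, 253 and 261 CPM to 258, 459 and 393 CPM, with RS replicate 1 inside the P/D range and a log2 fold change of 0.59 (standard error 0.17, edgeR adjusted p = 0.00303). Psme3 had 61.6, 31.2 and 48.9 CPM against 82.7, 63.2 and 95.8 CPM, a log2 fold change of 0.77 (standard error 0.31, edgeR adjusted p = 0.0302). Its call was lost without P/D replicate 2 (edgeR adjusted p = 0.183), P/D replicate 3 (0.0570) or RS replicate 3 (0.0882), and in DESeq2 (adjusted p = 0.135).

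Psmf1 rose from 110.1, 125 and 114 CPM to 179, 155 and 198 CPM on its main contig, a log2 fold change of 0.59 (standard error 0.21, edgeR adjusted p = 0.0141). That call was lost without P/D replicate 1 (edgeR adjusted p = 0.0669) and in DESeq2 (adjusted p = 0.0683). A second Psmf1 contig (ENSMUST00000109869) rose from 52.8, 20.8 and 32.6 CPM to 238, 159 and 201.2 CPM, or 2.50 on the log2 scale (standard error 0.29, edgeR adjusted p = 5.39e-10). In RS it had similar CPM to the main contig, although reads of these overlapping contigs may be split by the alignment. Its tails were long in both cell types (158 ± 11.2 and 180 ± 5.55 nt, SD, n = 3 each). Summed over the gene, Psmf1 had a log2 fold change of 1.504 (edgeR adjusted p = 7.30e-11). The assembly chaperone Psmg1 fell from 79.2, 62.4 and 89.7 CPM to 6.89, 18.7 and 25.5 CPM, a log2 fold change of -2.10 (standard error 0.37, edgeR adjusted p = 4.44e-06). Psmg1 met the count filter only through its P/D reads.

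**Figure D4:**
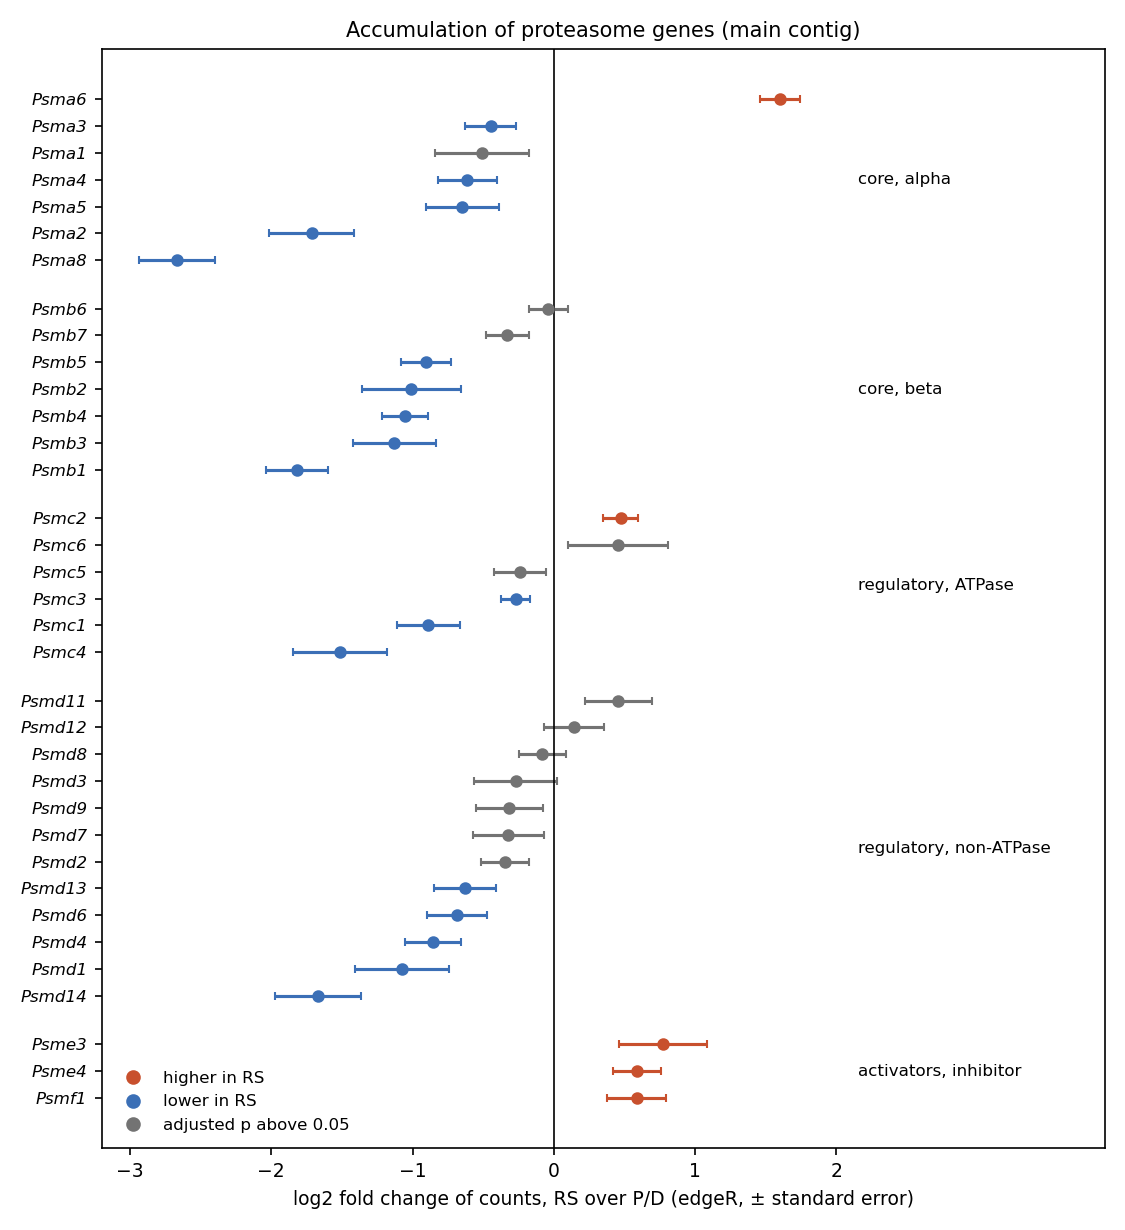
Log2 fold change of counts, RS over P/D (horizontal axis, edgeR), with its standard error for the main contig of each proteasome gene tested, by class. The assembly chaperones and Psme3ip1 are not drawn. Red points passed as higher, blue as lower and grey did not pass. In the core only Psma6 is red, at 1.60, and the lowest is Psma8 at -2.67.

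Tail length and accumulation were then set side by side for contigs tested in both. In the core, 8 of 15 contigs fell in accumulation with no call on the tail, 2 fell with longer tails (Psma4 and Psmb1), and Psma6 alone rose in both. Among the 8 are Psma2, Psma8, Psmb2 and Psmb3, which met the count filter only through their P/D reads. In the regulatory particle, 11 of 24 had longer tails with no call on accumulation, 7 had longer tails and fell, and Psmc2 alone rose in both. Psme4 and the main contig of Psmf1 also rose in both. Among all 5916 contigs tested in both, 10.4% fell with no call on the tail, 26.3% had longer tails with no call on accumulation, 19.7% had longer tails and fell, and 11.7% rose in both. DESeq2 did not call 3 of the 8 core falls (Psma3, Psma5 and Psmb2), the fall of Psma4, 4 of the 7 regulatory falls (Psmc3, Psmd1, Psmd6 and Psmd13) or the rise of the main Psmf1 contig. Over the main contigs of 37 genes the tail difference and the log2 fold change had a Pearson correlation of 0.37 and a Spearman correlation of 0.34, with 0.31 (Pearson) without Psma6. Within the core it was 0.64 (14 genes) and within the regulatory particle -0.08 (18 genes), against -0.29 over 5916 contigs. These correlations are across genes, whose 2 values come from the same reads and samples, and are given as a description.

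**Figure D5:**
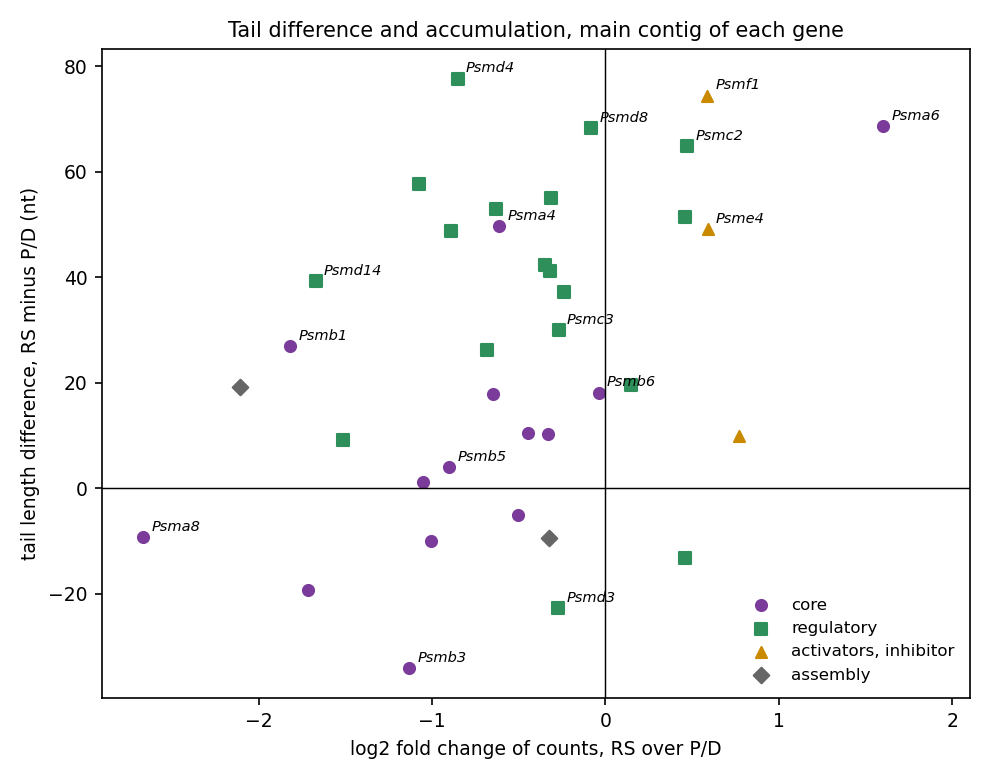
Tail length difference (nt, RS minus P/D, vertical axis) against log2 fold change of counts (RS over P/D, horizontal axis) for the main contig of each proteasome gene, by class. Psma6, Psmc2, Psme4 and Psmf1 lie at the upper right, Psmd4 and Psmd14 have longer tails at lower accumulation, and Psma8 is at the far left.

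Other genes of the proteasome pathway, taken from a list of 24 receptors, shuttles, chaperones and regulators, had 28 contigs of 19 genes. Tails were longer in 15 of 21 tested contigs and shorter in 0, beside 54.2% and 1.69% of all contigs, with a median difference of 45.3 nt. Adrm1, a ubiquitin receptor of the regulatory particle, rose by 71.5 nt (limma adjusted p = 7.18e-04), and Uchl5, the deubiquitinase that binds it, by 47.3 nt (limma adjusted p = 0.00111). Sem1, the small lid subunit, had 119 ± 2.95 nt and 103 ± 6.30 nt (SD, n = 3 each) and missed the threshold (limma adjusted p = 0.0629). Pomp, the chaperone of core assembly, had a tail difference of 14.5 nt that did not pass (limma adjusted p = 0.121) and fell in accumulation, with a log2 fold change of -1.74 (edgeR adjusted p = 6.02e-07). For accumulation, 6 of 21 contigs of the list were higher and 8 lower, near the shares over all contigs (32.6% and 30.8%).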

How the data were processed

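The authors sequenced native poly(A) RNA on nanopore flow cells, aligned the reads to GENCODE transcripts (minimap2 2.20-r1061 and SAMtools on mm10, per the submitters' processing notes) and estimated tails with Nanopolish. They deposited raw read counts per contig, which are not normalized, and, read by read, a poly(A) length in nt with the contig and sample. Counts equalled the number of listed reads for all 12114 contigs, so both files hold the same reads. Of 15189 member reads, 9 were listed on more than 1 contig. Members were matched by the symbol in the files, and 57 of 58 symbols were the same in GENCODE vM21, which gave the coordinates and the 3′ ends.

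Groups are the labelled cell types. P/D and RS samples carry the same replicate numbers, and the study isolated all germ cell types from the same mice, but that equal numbers mark the same pool is not stated. Over 1827 contigs, deviations from the group means of same-numbered samples correlated at -0.0106, 0.0771 and 0.0157 for tails and 0.0282, 0.237 and 0.0687 for log2 CPM. Main fits had no replicate block, and the fit with it is given where it changed a call.

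Tail means per sample were tested with limma 3.58.1 (lmFit, eBayes) for contigs with at least 10 reads in 2 replicates of 1 cell type, provided that both cell types had a mean in 2 replicates or more. For counts the test was edgeR 4.0.16 (TMM, filterByExpr, quasi-likelihood test), and DESeq2 1.42.0 was an alternative. P-values were two-sided and adjusted by Benjamini-Hochberg over all annotated contigs, with a threshold of 0.05. Both tests were tested on simulated data. With pools as samples, n = 3 limits the precision, as do read numbers, which ranged from 27 to 2140 for the main contig of a gene. The software was R 4.3.3 and Python 3.11.15 with pandas 2.3.3, numpy 2.4.6 and matplotlib 3.10.9.

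The members, lists and tests were chosen with earlier results of these data known. The main contig of a gene is that with most reads. Named with values in every sample are, in each subunit group, the main contigs with the largest rise and fall in accumulation among calls and with the largest and smallest tail difference among those with 20 reads in every sample. Named too are genes fixed by role (Psma8, Psmb5, Psmb6, Psmb7, Psme3, Psme4, Psmf1, Psmd10, Psmd14), contigs called opposite to their main contig, and contigs called shorter. Psma2, Psma4, the second Psmf1 contig, the minor Psmd4 contig, Psmd8 and the pathway genes given as examples were chosen after their values were seen.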

Additional observations from a re-analysis of the deposited data

How the results depend on the processing

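Alternatives changed thresholds, filters, scale, normalization, test and unit (contig or gene), and left out each replicate in turn. The 25 longer tails of 48 tested ranged from 20 of 24, with at least 20 reads in every sample, to 32 of 48 on the log2 scale. For shorter tails, the call of Psmd3 was lost (0 members) at a threshold of 0.01, with at least 20 reads in every sample (where it was not tested), on the log2 scale and with the replicate block. A filter of 10 reads in both cell types gave 2 shorter members, adding Psmb3 (1 core contig), and leaving out a replicate gave 0 to 2 (core 0 to 1, regulatory 0 to 1), since without RS replicate 3 Psma2 was called and without RS replicate 1 or 2 Psmd3 was not. Longer core contigs numbered 8 of 16 on the log2 scale, beside 4117 of 6990 contigs, and 3 to 5 without a replicate. Among all contigs, shorter tails numbered 118, 34 at 0.01 and 80 with the methods' t-test after Benjamini-Hochberg adjustment, and 1592 of 1827 were longer with at least 20 reads in every sample.

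Summing counts by gene left 5 members higher (regulatory 1, activators and inhibitor 3 of 3 genes), and turned the second Psmc3 contig's 0.86 to -0.0762 for the gene. At a threshold of 0.01, 6 core contigs were lower and 3 of the activators and inhibitor higher. DESeq2 left 12 members lower (regulatory 4) and 3 of the activators and inhibitor higher. At least 10 counts in every sample cut the members tested from 47 to 33. It gave 6 lower (core 4, regulatory 2) and 6 higher (core 1, regulatory 3, activators and inhibitor 2). Falls thus did not outnumber rises under that filter. Over all contigs, 3404 of 11467 were higher with no filter and 768 of 3077 with that minimum. Without a replicate, core contigs lower numbered 7 to 10.

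For tails of 120 to 180 nt, RS minus P/D was 10.4 percentage points in the core and 29.6 in the regulatory particle. For tails of 120 to 210 nt, equal gene weight gave 4.18 and 29.1 in place of 15.8 and 37.8, leaving out a replicate gave 15.3 to 16.1 and 36.4 to 38.7, and the core without Psma6, chosen after seeing the data, gave 3.28.

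With the replicate block, 23 members were longer, 0 shorter, 8 higher and 19 lower. It ended the calls of Psmb6, Psmd12 and Psmd3 among the named contigs. Not every sample correlated best with its own number. The planned read shares of Psma8 with Psma7 and of Psmb5 to Psmb7 with Psmb8 to Psmb10 gave no value, because no contig matched the partners. Contigs with few reads in RS, such as Psma8 and Psmd14, have the least certain tail means.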
